A study of Mus musculus with 6 samples.

Results

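The SLAM family is a set of immunoglobulin-type receptors on blood cells, and 7 of its genes were followed here: Slamf1, Cd48, Cd84, Ly9, Slamf6, Slamf7 and Slamf9. They are 7 of the 19938 genes that could be named on the array, taken from a fixed list of family members, each with exactly 1 probe set that carries a single gene symbol. Bone marrow cells of MYB knockdown mice were compared with those of wild type mice, with 3 mice in each group and 1 array per mouse. Every mouse was a C57BL6 male aged 4 weeks, and from each marrow the cells positive for Kit and CD11b and low for lineage markers were sorted by FACS (K11bL cells). Kit is the stem cell factor receptor of progenitors and CD11b, encoded by Itgam, is a myeloid integrin. The sources used here do not state the allele behind the knockdown, the cells in which it acts or the lineage markers of the sort.

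Most SLAM family receptors bind a second copy of themselves on a neighbouring cell. The known exception is the pair of Cd48, which has no cytoplasmic tail, and its receptor Cd244a. Tyrosine motifs in the tails of most of the others bind small adaptors of the SAP family (Sh2d1a, Sh2d1b1, Sh2d1b2). Of these, Sh2d1a is the one best known to recruit a Src family kinase. In mouse marrow, surface CD150 (Slamf1) without CD48 and CD244 is used to sort haematopoietic stem cells, whereas CD48 is carried by most committed progenitors.

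In these sorted cells 1 member rose, 1 fell and the other 5 did not pass the test. Slamf1 was 2.06-fold higher in the MYB knockdown, Slamf7 was 1.37-fold lower, and Cd48 differed by 0.01 on the log2 scale. The test was limma's moderated test over 13956 genes with a Benjamini-Hochberg adjusted p threshold of 0.05, and all 7 members were bright enough to enter it. Over all genes tested, 6.12% rose and 5.48% fell, or 11.6% in either direction, and with only 7 genes, 1 rise and 1 fall cannot be told from these shares. The groups did not overlap for 3 of the 7 members (Slamf1, Ly9 and Slamf7), against 34.3% of all genes. The members' median difference, knockdown minus wild type, was 0.05 log2, beside 0.02 for all genes tested.

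The sequence windows of the Slamf1 and Slamf7 promoters are shown because these members moved in opposite directions in mice with a knockdown of Myb, a DNA-binding transcription factor. Each runs from 250 bases before to 50 bases after the gene's start, on mouse build GRCm38.p6, from RefSeq. Slamf1 is on the plus strand at chr1:171766882-171767181 and Slamf7 on the minus strand at chr1:171648950-171649249. Capitals mark each match to AACNG, the core of the sites that Myb is known to bind, on either strand (CNGTT where it lies on the other strand).
Slamf1: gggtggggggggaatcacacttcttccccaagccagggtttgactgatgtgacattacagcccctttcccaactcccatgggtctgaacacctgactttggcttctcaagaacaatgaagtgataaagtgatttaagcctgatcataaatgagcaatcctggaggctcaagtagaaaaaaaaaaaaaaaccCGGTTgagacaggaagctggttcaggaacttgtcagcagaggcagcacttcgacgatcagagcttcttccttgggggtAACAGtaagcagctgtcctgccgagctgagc
Slamf7: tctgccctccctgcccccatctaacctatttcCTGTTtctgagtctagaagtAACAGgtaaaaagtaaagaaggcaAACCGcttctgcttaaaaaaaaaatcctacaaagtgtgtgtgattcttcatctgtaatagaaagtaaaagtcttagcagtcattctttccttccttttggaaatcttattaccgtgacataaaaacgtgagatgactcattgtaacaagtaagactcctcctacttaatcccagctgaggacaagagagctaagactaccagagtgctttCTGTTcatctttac
The Slamf1 window held 2 matches and the Slamf7 window 4. Of the other members, Cd48 had 4 matches, Cd84 had 2, and Slamf6 and Slamf9 had 1 each, so the window of Cd48, which did not pass the test, matched as often as that of Slamf7. No window for Ly9 was used here, which leaves 6 of 7 members with one. A match was present in 80.3% of the 32851 promoter windows of this length, with a mean of 1.77 per window, and a match of these letters is not evidence of binding.

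Array values are the authors' log2 expression values, 1 per probe set and array. A probe set's brightness depends on its own probes, so levels are compared between mice and not between genes. Myb itself had log2 values of 11.26, 11.08 and 11.14 in MYB knockdown mice 1, 2 and 3, against 11.47, 11.46 and 11.46 in wild type mice. Its difference was -0.30 ± 0.06 (SE), with an adjusted p of 0.0196 by limma. This call was lost in 6 of 15 alternative analyses, and over all 15 the adjusted p lay between 0.000586 and 0.0967. Of the sort markers, Kit averaged 10.2 ± 0.01 in knockdown and 10.5 ± 0.10 in wild type, and Itgam averaged 9.45 ± 0.39 in knockdown and 9.84 ± 0.05 in wild type (SD, n = 3 each). Both were bright in all mice and neither difference passed (adjusted p by limma 0.06 and 0.202). Knockdown mouse 3 stood apart: its array correlated at 0.977 and 0.984 with the other knockdown arrays, where the other pairs within a group had correlations between 0.993 and 0.995. Without it, 17.1% of genes tested rose and 10% fell, and the calls of named genes that change are given beside them. Kit was one, with an adjusted p of 0.0147 without this mouse (0.00423 to 0.265 over 15 alternatives).

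Slamf1 encodes CD150, a self-binding receptor of stem cells, megakaryocyte progenitors and activated lymphocytes. Its probe set, 10351667, had log2 values of 6.94, 7.05 and 7.07 in MYB knockdown mice, against 6.07, 5.81 and 6.05 in wild type mice. All 3 knockdown mice were higher than all 3 wild type mice, and the gap between the groups was larger than the spread within either. The means were 7.02 ± 0.07 in knockdown and 5.98 ± 0.15 in wild type (SD, n = 3 each). Slamf1 rose by 1.04 ± 0.11 (SE), with a 95% interval of 0.80 to 1.29 and an adjusted p of 0.000691 by limma. It passed in each of 15 alternative analyses, with differences between 0.96 and 1.12.

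**Figure D1:**
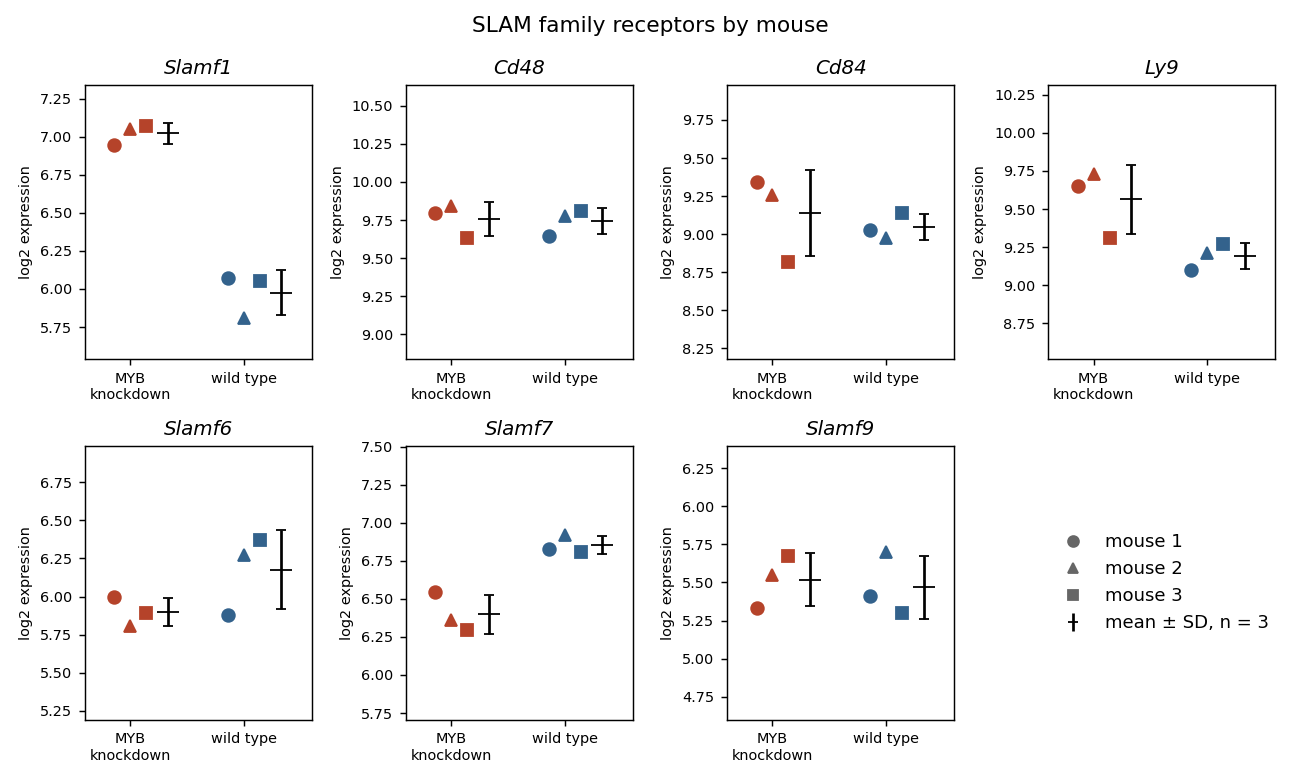
Log2 expression of each SLAM family member (vertical axes, each spanning the same height in log2 units) in 3 MYB knockdown mice (red, left) and 3 wild type mice (blue, right), with symbols for the mouse numbers of the labels and black bars for the mean and SD. Slamf1 and Slamf7 separate the groups in opposite directions, Ly9 separates them by a small gap, and Cd48, Cd84, Slamf6 and Slamf9 overlap.

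Slamf7 encodes CRACC (CD319), a self-binding receptor of natural killer cells, plasma cells and macrophages. Probe set 10360173 gave log2 values of 6.54, 6.36 and 6.29 in MYB knockdown mice, against 6.83, 6.92 and 6.81 in wild type mice. Every knockdown mouse was lower than every wild type mouse. The means were 6.40 ± 0.13 in knockdown and 6.85 ± 0.06 in wild type (SD, n = 3 each). Slamf7 fell by 0.45 ± 0.10 (SE), with a 95% interval from -0.69 to -0.21 and an adjusted p of 0.0277 by limma. The size was between -0.53 and -0.38 in all 15 alternatives, but the call changed with single mice. The adjusted p was 0.103 without knockdown mouse 2 and 0.107, 0.132 and 0.101 without wild type mouse 1, 2 or 3, whereas Slamf7 passed without knockdown mouse 1 (0.0176) or 3 (0.0126). Over all alternatives it lay between 0.00288 and 0.132.

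Ly9 encodes CD229, a self-binding receptor best known from B and T lymphocytes. Its log2 values were 9.65, 9.73 and 9.31 in MYB knockdown mice, against 9.10, 9.21 and 9.27 in wild type mice. The knockdown values all lay above the wild type values, but that of knockdown mouse 3 did so by little. The difference of 0.37 ± 0.12 (SE; 95% interval 0.08 to 0.65) missed the threshold, with an adjusted p of 0.0992 by limma. Without knockdown mouse 3 the difference was 0.50 and the adjusted p 0.000992. Ly9 also passed after centring each array on its median (0.0475) and with array weights (0.00103), and over all alternatives the adjusted p ran from 0.000992 to 0.32.

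Cd84, a self-binding receptor of myeloid cells, mast cells and platelets, followed a similar split among the knockdown mice. Its log2 values were 9.34, 9.26 and 8.82 in MYB knockdown mice, against 9.02, 8.97 and 9.14 in wild type mice. Knockdown mice 1 and 2 were above the wild type range and knockdown mouse 3 was below it, so the groups overlapped. The difference was 0.09 ± 0.14 (SE; 95% interval -0.24 to 0.42; adjusted p = 0.76 by limma). Without knockdown mouse 3 it was 0.26 with an adjusted p of 0.0262, the lowest of 15 alternatives, and the highest was 0.981. The count of members that rose was then 3 of 7, namely Slamf1, Cd84 and Ly9, where 17.1% of all genes rose.

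Cd48, the ligand of Cd244a that is tied to the membrane by a lipid anchor, had log2 values of 9.80, 9.85 and 9.63 in MYB knockdown mice, against 9.65, 9.78 and 9.81 in wild type mice. The groups overlapped across nearly their whole range. The difference was 0.01 ± 0.09 (SE; adjusted p = 0.962 by limma), and its 95% interval of -0.20 to 0.23 leaves room for a small change either way. The lower bound for Slamf1, 0.80, lay above the upper bound for Cd48, although the difference between the genes was not itself tested.

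Slamf6 and Slamf9 were dimmer. Slamf6 encodes Ly108, a self-binding receptor of lymphocytes, and its log2 values were 5.99, 5.81 and 5.89 in MYB knockdown mice, against 5.88, 6.27 and 6.37 in wild type mice. Wild type mouse 1 lay within the knockdown range and the other wild type mice above it. The difference was -0.28 ± 0.14 (SE; 95% interval -0.60 to 0.04; adjusted p = 0.26 by limma), and it passed only with array weights (0.0417), in a range of 0.0417 to 0.629 over 14 alternatives.

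Slamf9, a member of the family with a short tail that lacks the tyrosine motifs, had log2 values of 5.33, 5.55 and 5.68 in MYB knockdown mice, against 5.41, 5.70 and 5.30 in wild type mice. The groups overlapped. The difference was 0.05 ± 0.13 (SE; 95% interval -0.26 to 0.36; adjusted p = 0.877 by limma). No value of any of the 7 members was under the lower quartile of its array, which lay between 4.46 and 4.58.

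**Figure D2:**
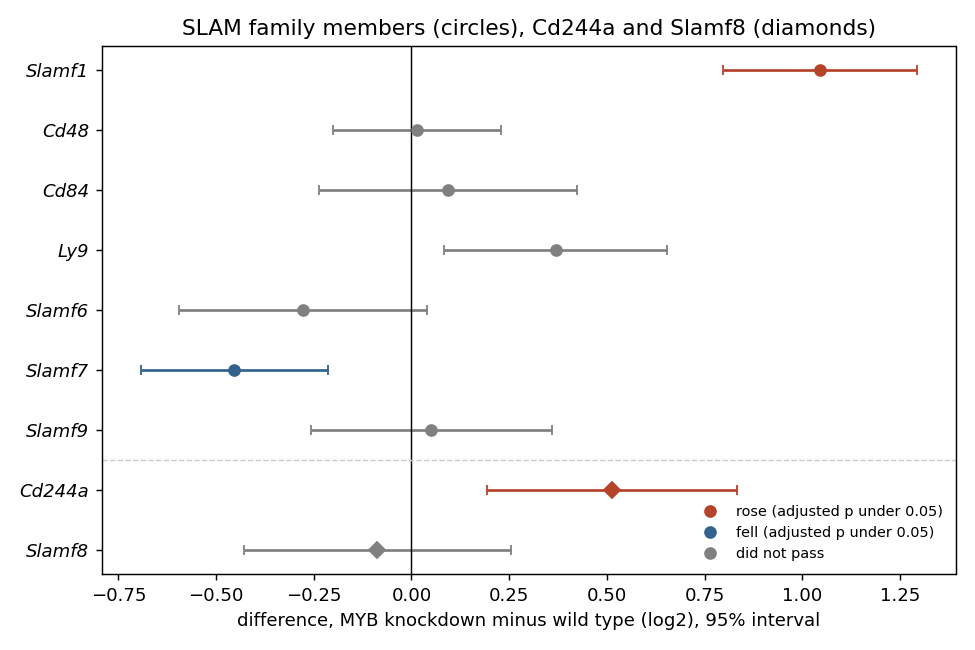
Difference in log2 expression, MYB knockdown minus wild type (horizontal axis), with its 95% interval from limma, for the 7 SLAM family members (circles) and, below the dashed line, Cd244a and Slamf8 (diamonds). The intervals of Slamf1 (0.80 to 1.29) and Slamf7 (-0.69 to -0.21) lie on opposite sides of 0, while those of Cd48, Cd84, Slamf6 and Slamf9 cross it.

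Cd244a and Slamf8 belong to the same family but not to the 7 members. Cd244a encodes 2B4, the receptor for Cd48, and had log2 values of 8.38, 8.34 and 7.93 in MYB knockdown mice, against 7.61, 7.73 and 7.78 in wild type mice. All knockdown values were above all wild type values, with knockdown mouse 3 the closest. Cd244a rose by 0.51 ± 0.14 (SE; 95% interval 0.19 to 0.83), with an adjusted p of 0.0498 by limma, just inside the threshold. The call was kept in 7 of 15 alternatives and the adjusted p ran from 0.000329 to 0.198; it was lost without any 1 wild type mouse (0.133 to 0.198) and without knockdown mouse 1 (0.109) or 2 (0.158). The receptor of this pair passed on all arrays and its ligand Cd48 did not, and the difference between the genes was not tested.

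Slamf8, which like Slamf9 has a short tail, averaged 5.83 ± 0.22 in knockdown and 5.92 ± 0.22 in wild type (SD, n = 3 each; difference -0.09 ± 0.15 SE; adjusted p = 0.791 by limma). Cd2, a T cell adhesion receptor and relative of the family, averaged 4.51 ± 0.11 in knockdown and 4.53 ± 0.15 in wild type (SD, n = 3 each) and was too dim to be tested. Also on that list were Fcrl6 and Crtam, which are receptors outside the family. Fcrl6 averaged 4.25 ± 0.11 in knockdown and 4.19 ± 0.33 in wild type (SD, n = 3 each), too dim to be tested, and Crtam differed by 0.06 ± 0.11 (SE; adjusted p = 0.821 by limma).

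The SAP family adaptors carry the signal of the receptors with tyrosine motifs. Sh2d1a, which encodes SAP and is best known from T and natural killer cells, averaged 3.95 ± 0.10 in knockdown and 4.04 ± 0.19 in wild type (SD, n = 3 each), with all 6 values under the lower quartile of their arrays. Sh2d1b2, a second gene of EAT-2 type, averaged 4.50 ± 0.12 in knockdown and 4.41 ± 0.12 in wild type (SD, n = 3 each), with 4 of 6 values under the lower quartile. Neither entered the test, which left out the dimmest 30% of genes.

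Sh2d1b1, which encodes EAT-2, was the 1 adaptor bright enough to be tested. Its log2 values were 7.90, 7.17 and 7.21 in MYB knockdown mice, against 6.74, 6.56 and 6.85 in wild type mice. All knockdown mice were higher, knockdown mouse 1 by the most. The difference of 0.72 ± 0.20 (SE; 95% interval 0.27 to 1.16) gave an adjusted p of 0.051 by limma, just outside the threshold, and it passed in 6 of 15 alternatives (adjusted p from 0.00898 to 0.199), among them that without knockdown mouse 3 (difference 0.82, adjusted p = 0.0115).

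Of the 40 genes on a broad list of signalling genes linked to SLAM family receptors, 36 had a probe set of their own and 34 were tested. Besides adaptors, kinases and phosphatases, the list holds other genes such as Cd3e, Rela, Cbl and Becn1. By limma 5 rose (Lat2, Cd2ap, Csk, Prkcq and Lat) and 0 fell. That is 5 rises of 34, against 6.12% of all genes that rose and 5.48% that fell. At an unadjusted p under 0.05 by limma, 9 were higher and 4 lower, and the share of all genes at that cutoff was not counted. The list's median difference was 0.02 log2, the same as that of all genes tested at this rounding. Leaving out knockdown mouse 3 gave 11 rises and 4 falls in this list, where 17.1% of all genes rose and 10% fell. Leaving out wild type mouse 1 or 2 gave 1 rise, where 2.14% and 2.21% of all genes rose. Leaving out wild type mouse 3 or knockdown mouse 2 gave 2, where 2.56% and 3.07% of all genes rose.

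Lat2, an adaptor of mast cells and B cells, had log2 values of 9.23, 9.31 and 8.85 in MYB knockdown mice and a wild type mean of 8.26 ± 0.13 (SD, n = 3). It rose by 0.86 ± 0.14 (SE; adjusted p = 0.00597 by limma) and passed in all 15 alternatives. Cd2ap, which links the tail of CD2 to the cytoskeleton, rose by 0.64 ± 0.11 (SE; adjusted p = 0.00889 by limma). Csk, the kinase that holds Src family kinases inactive, rose by 0.50 ± 0.10 (SE; adjusted p = 0.0142 by limma). Prkcq, protein kinase C theta of T cells and platelets, rose by 0.50 ± 0.10 (SE), and Lat, the linker of T cells and platelets, by 0.40 ± 0.10 (SE), with adjusted p values by limma of 0.0172 and 0.0403. With 1 mouse left out, Cd2ap, Csk, Prkcq and Lat each lost the call in some fits, with highest adjusted p values of 0.0568, 0.085, 0.0973 and 0.184.

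Vav1, an exchange factor recruited by these receptors, differed by -0.43 ± 0.12 (SE; adjusted p = 0.0511 by limma), and Plcg2, phospholipase C gamma 2, by 0.33 ± 0.09 (SE; adjusted p = 0.0523). Both were just outside the threshold and passed in 6 and 4 of 15 alternatives, over which their adjusted p lay between 0.00441 and 0.192 and between 0.000467 and 0.198. Both passed without knockdown mouse 3, Vav1 at -0.30 (adjusted p = 0.00441) and Plcg2 at 0.40 (adjusted p = 0.00101).

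**Figure D3:**
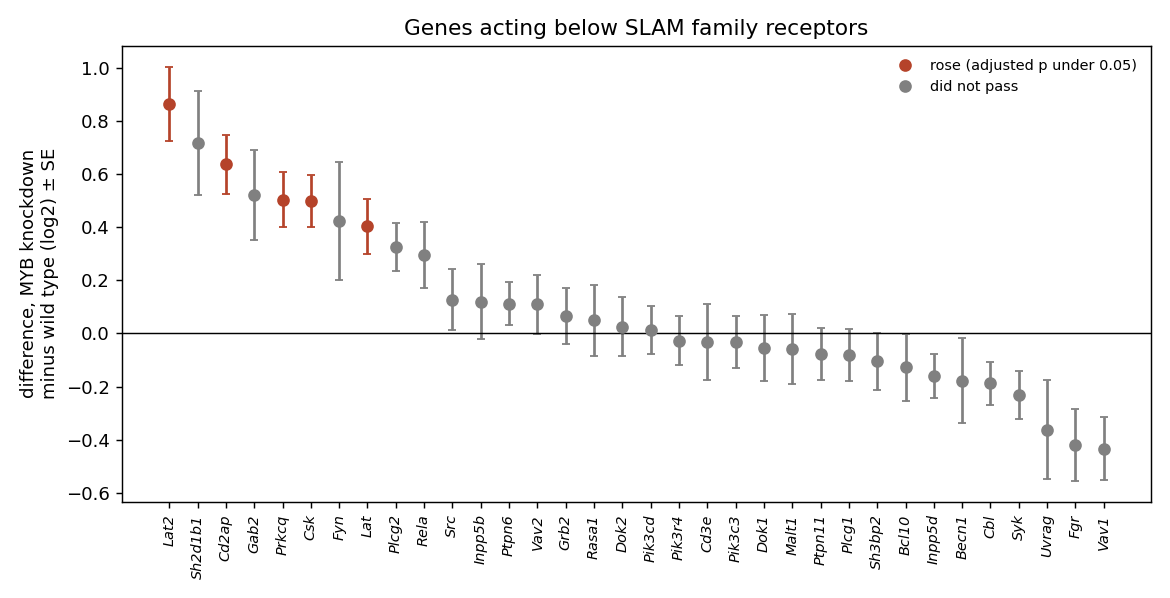
Difference in log2 expression, MYB knockdown minus wild type (vertical axis), with its SE, for the 34 tested genes of the broad signalling list, ordered by size. Lat2, Cd2ap, Csk, Prkcq and Lat rose (red), and no gene fell in the test, although Vav1 at -0.43 lay lowest.

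Slamf1 and Cd48 are read together with other surface markers when stem and progenitor cells are sorted. Of 13 measured companions of this kind, 3 rose (Itga2b, Cd34 and Eng) and 1 fell (Fcgr3), with a median difference of -0.21 log2. Over all genes tested, 6.12% rose and 5.48% fell, with a median difference of 0.02 log2. Itga2b, the CD41 integrin chain of megakaryocytes, rose by 1.02 ± 0.10 (SE), close to the size of Slamf1. Cd34, a progenitor sialomucin, rose by 0.47 ± 0.07 (SE), and Eng, endoglin, by 0.77 ± 0.18 (SE). Fcgr3, an IgG receptor used to mark granulocyte and monocyte progenitors, fell by 1.04 ± 0.16 (SE). Their adjusted p values by limma were 0.000497, 0.00376, 0.0276 and 0.00425. Eng lost the call in 4 of 15 alternatives (highest adjusted p 0.124), and the other 3 genes kept it in all. Fcgr2b, another IgG receptor on the list, differed by -0.08 ± 0.09 (SE) and did not pass (adjusted p = 0.665 by limma). Il7r (-0.60 ± 0.17), Kit (-0.27 ± 0.08), Flt3 (0.30 ± 0.11) and Esam (-0.29 ± 0.11, all SE) did not pass, with adjusted p values by limma of 0.0559, 0.06, 0.112 and 0.149. Il7r and Flt3 passed without knockdown mouse 3 (0.0447 and 0.0331), as Kit did; over 15 alternatives their adjusted p lay between 0.00513 and 0.192 for Il7r and between 0.0111 and 0.356 for Flt3.

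The genes whose values followed Slamf1 most closely over the 6 arrays were St6gal1, Taf9b and P2ry2. Likeness was the root mean square distance between log2 values centred on each gene's mean, which was 0.05, 0.07 and 0.08. St6gal1, a sialyltransferase, had log2 values of 6.69, 6.69 and 6.82 in MYB knockdown mice, against 5.81, 5.64 and 5.78 in wild type mice, with wild type mouse 2 lowest as for Slamf1. For Slamf7 the closest were Rapgef2, Tm6sf1 and Phactr2, at distances of 0.02, 0.03 and 0.03. Rapgef2, an exchange factor for Rap proteins, had log2 values of 8.60, 8.46 and 8.33 in MYB knockdown mice, against 8.90, 9.02 and 8.88 in wild type mice. These genes were picked for their likeness out of 13956, so their differences are given only as a description.

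The 7 members lie on chromosome 1, and Slamf9 is set apart from the other 6. In the RefSeq annotation the order was Ly9, Slamf7, Cd48, Slamf1, Cd84 and Slamf6, then a run of other genes, then Slamf9. Slamf7, which fell, and Slamf1, which rose, were thus on either side of Cd48, which did not pass. Between the outermost members 13 other genes were measured and 9 tested, of which 2 rose and 0 fell by limma. Over all genes tested, 6.12% rose and 5.48% fell. Vangl2, a planar polarity protein next to Slamf6 among the measured genes, rose by 0.76 ± 0.12 (SE; adjusted p = 0.00576), and Pea15a, a binding partner of ERK, by 0.72 ± 0.12 (SE; adjusted p = 0.00706). Igsf8 differed by 0.51 ± 0.14, Kcnj10 by -0.30 ± 0.12, Pex19 by 0.26 ± 0.11 and Copa by -0.18 ± 0.09 (all SE), and none of these 4 passed. Without knockdown mouse 3, Igsf8 passed at a difference of 0.37 (adjusted p = 0.0274, in a range of 0.00503 to 0.22 over 15 alternatives). The median of the 9 was 0.06 log2.

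**Figure D4:**
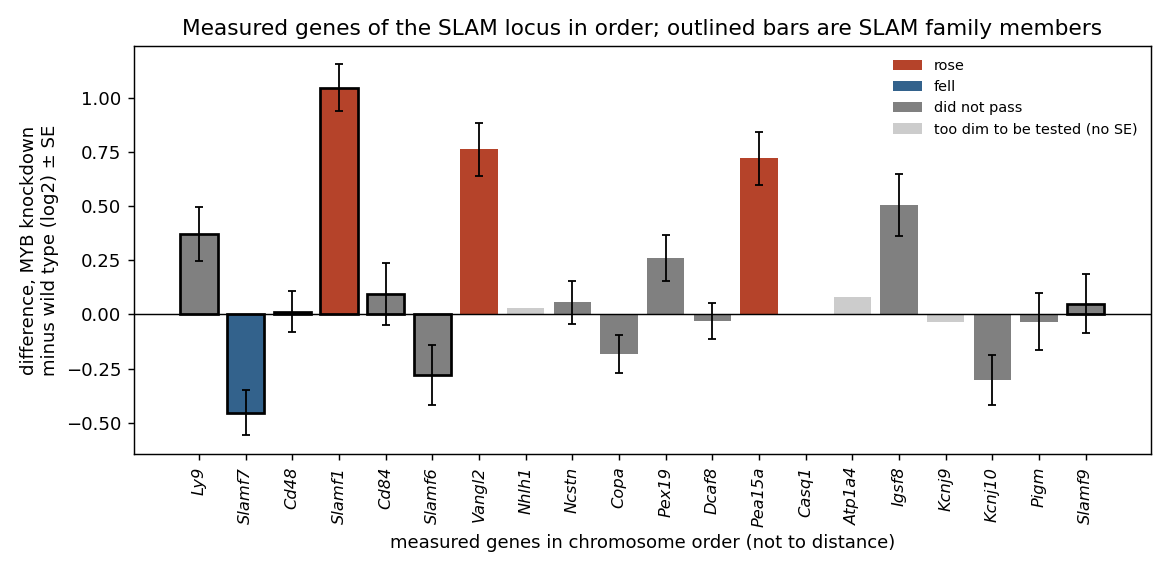
Difference in log2 expression, MYB knockdown minus wild type (vertical axis, bars with SE), for the 20 measured genes from Ly9 to Slamf9 in chromosome order, not drawn to distance; outlined bars are the 7 members. Slamf1, Vangl2 and Pea15a rose and Slamf7 fell, with genes that did not pass between them.

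Marker lists of blood cell types were also compared between the groups. In sorted bulk RNA, fewer cells of a type and less RNA per cell cannot be told apart. The mean levels given for each list are over all its markers with a probe set, including those too dim to be tested. Those of the T and natural killer list and of the erythroid list overlapped between the groups. Beside Slamf1, 7 of 12 tested stem cell markers other than Slamf1 itself rose and 0 fell by limma (8 higher and 0 lower at an unadjusted p under 0.05), with mean log2 levels of 8.30 to 8.49 in MYB knockdown mice and 7.83 to 7.89 in wild type mice. Mllt3, a stem cell regulator, rose by 0.85 ± 0.10 (SE). Cd34 and Gata2, which are also on other lists here, were among the rises. Procr (-0.14 ± 0.11), Fgd5 (-0.14 ± 0.10), Angpt1 (-0.03 ± 0.20), Tek (0.07 ± 0.26) and Mycn (0.37 ± 0.12, all SE) did not pass. Among all genes tested 6.12% rose and 5.48% fell by limma. The share of all genes at an unadjusted p under 0.05 was not counted, here or for the lists below. Of 10 tested megakaryocyte and platelet markers 7 rose and 0 fell (8 and 0 at an unadjusted p under 0.05), with mean levels of 8.08 to 8.18 in MYB knockdown mice and 6.99 to 7.12 in wild type mice. Ppbp, a platelet chemokine, rose by 3.50 ± 0.20 and Itgb3, a platelet integrin chain, by 1.48 ± 0.11 (both SE). The part of either cell type in the rise of Slamf1 was not tested.

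The list counts that follow stand beside 6.12% of all genes tested that rose and 5.48% that fell. Beside Slamf7, 3 of 6 tested plasma cell markers fell and 0 rose by limma (3 lower and 1 higher at an unadjusted p under 0.05). Their mean log2 levels over 9 markers were 5.90 to 6.01 in MYB knockdown mice and 6.27 to 6.34 in wild type mice. Jchain, the immunoglobulin joining chain, fell by 2.30 ± 0.25 and Mzb1, a plasma cell chaperone, by 0.54 ± 0.10 (both SE). Mzb1 kept its call in 12 of 14 alternatives (highest adjusted p 0.0744 by limma). Prdm1, Irf4 and Tnfrsf17, which define plasma cells, were too dim to be tested. Of 9 tested T and natural killer markers 1 fell, Nkg7, by 1.44 ± 0.13 (SE), and 7 more were too dim. Gzmb differed by 0.57 ± 0.37 (SE; adjusted p = 0.4 by limma). The mean level of the T and natural killer list was 5.35 to 5.50 in MYB knockdown mice and 5.46 to 5.57 in wild type mice. Of 12 tested monocyte and macrophage markers 3 rose and 4 fell, with Vcam1 (-3.00 ± 0.24) and F13a1 (-2.84 ± 0.34) among the falls and Cd68 (1.23 ± 0.18, all SE) among the rises, and mean levels of 7.66 to 8.05 in MYB knockdown mice and 8.19 to 8.32 in wild type mice. The part of these cells in the fall of Slamf7 was not tested.

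The same shares of all genes tested, 6.12% that rose and 5.48% that fell, apply to the next counts. For the members best known from lymphocytes, Ly9 and Slamf6, 4 of 10 tested B cell markers fell. Dntt (-1.40 ± 0.21) and Igll1 (-2.06 ± 0.33) were among them, and 1 marker rose, Cd22 (0.53 ± 0.12, all SE). The mean level of the B cell list was 5.75 to 6.01 in MYB knockdown mice and 6.19 to 6.73 in wild type mice. Ly9 differed by 0.37 and Slamf6 by -0.28, and neither passed. Of 15 dendritic cell markers 5 rose and 2 fell, with Cd209a (1.64 ± 0.21), Siglech (0.98 ± 0.20), Spib (0.96 ± 0.18) and Tcf4 (0.79 ± 0.10) among the rises, Clec9a (-0.92 ± 0.19) and Xcr1 (-0.70 ± 0.14, all SE) as the falls, and mean levels of 7.80 to 8.03 in MYB knockdown mice and 7.55 to 7.72 in wild type mice. For Cd84, 3 of 8 tested mast cell and basophil markers rose and 4 fell, with Mcpt8 (-3.31 ± 0.16) and Prss34 (-3.47 ± 0.29) among the falls, Fcer1a (2.01 ± 0.44), Cd200r3 (1.62 ± 0.42) and Gata2 (1.05 ± 0.21, all SE) as the rises, and mean levels of 6.66 to 6.93 in MYB knockdown mice and 7.0 to 7.41 in wild type mice. The Cd200r3 values of wild type mice 2 and 3 (4.39 and 4.33) were under the lower quartile of their arrays. Of 15 neutrophil granule markers 10 fell and 1 rose, with Elane (-3.69 ± 0.08) and Fcnb (-4.25 ± 0.15) among the falls, Mmp8 (3.26 ± 0.36, all SE) as the rise, and mean levels of 9.49 to 10.1 in MYB knockdown mice and 10.9 to 11.2 in wild type mice. Of 10 erythroid markers 1 rose, Car2, by 0.38 ± 0.10 (SE; adjusted p = 0.0479 by limma). Its call was kept in 6 of 15 alternatives, over which the adjusted p ran from 0.0104 to 0.185. Gata1 differed by 0.84 ± 0.24 (SE) without passing, but passed without knockdown mouse 3 (adjusted p = 0.0288, in a range of 0.0222 to 0.211 over 15 alternatives). Mean levels of the erythroid list were 7.74 to 8.77 in MYB knockdown mice and 7.75 to 8.11 in wild type mice. Cd68, Cd22, Siglech, Spib, Clec9a, Xcr1, Fcer1a, Cd200r3, Gata2 and Mmp8 were named after their values were seen. So were Procr, Mycn, Fgd5, Angpt1, Tek, Prdm1, Irf4, Tnfrsf17 and, among the companions, Fcgr2b. The part of these cell types in the members' values was not tested.

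**Figure D5:**
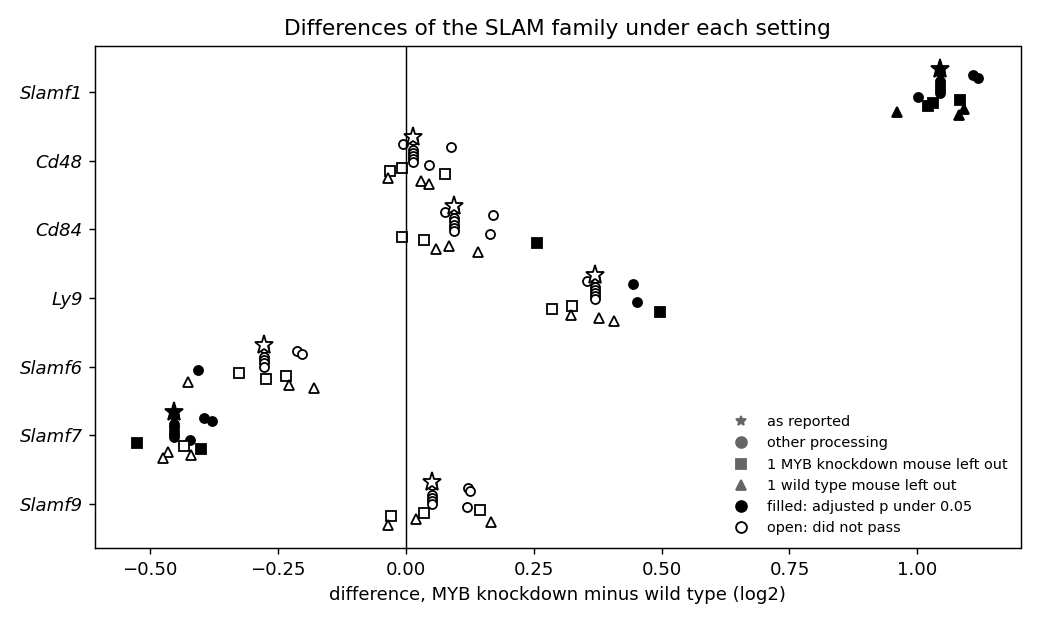
Difference in log2 expression, MYB knockdown minus wild type (horizontal axis), of each SLAM family member as reported (stars) and under each alternative; squares and triangles leave out 1 knockdown or 1 wild type mouse, and filled symbols have an adjusted p under 0.05. Slamf1 stays between 0.96 and 1.12 and is filled throughout, Slamf7 is filled in 11 of 15 alternatives, and Cd48 and Slamf9 are open on both sides of 0.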

How the data were processed

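Total RNA of sorted K11bL cells from 3 MYB knockdown and 3 wild type mice was hybridised to 1 Affymetrix array per mouse. The authors deposited 1 log2 value per probe set and array; that scale was inferred from the range of values (1.83 to 13.3). The submitters' processing notes name Affymetrix Expression Console and limma. No label used here says how background was corrected, arrays normalized and probes summarised. The number of arrays limits the precision, and no scan date or other batch is given. The mice are separate animals.

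Of 35556 probe sets, 21789 carried 1 gene symbol in the platform annotation, 1621 several and 12146 none. By gene number 21698 were matched to RefSeq (GRCm38.p6), and 0 symbols changed. RefSeq served for names, gene order and promoter windows, and the build of the array's probes is not given in the sources used here. Per gene, the probe set of highest mean over all 6 arrays was taken; each member had only 1. Genes in the lowest 30% by mean were left out of the test.

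Knockdown and wild type were compared by limma 3.58.1 in R 4.3.3 (lmFit, eBayes with trend, no covariate, two-sided, Benjamini-Hochberg over 13956 genes, threshold 0.05), and every adjusted p comes from such a fit. The code was tested on simulated data. The members and gene lists were chosen with earlier results of these data known. Other genes were named by a rule: all adaptors and receptors of the family, the 8 of smallest p among signalling and companion genes, the 3 most alike for each called member, the 6 of smallest p among chromosome neighbours, and 2 per marker list. SLAM family members were left out of the marker lists when these were counted. Alternatives were a replicate block, each array left out, quantile normalization, median centring, no filter or a 50% filter, the mean of probe sets, eBayes without trend or robust, array weights, and a threshold of 0.1. List genes without a probe set of their own were not analysed here.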

Additional observations from a re-analysis of the deposited data

How the results depend on the processing

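Slamf1 kept its direction and its call in all 15 alternatives and Slamf7 its direction in all 15 and its call in 11. With 3 mice per group, calls near the threshold depended on single mice; fits without 1 mouse have fewer samples, and the cause of other changes was not tested. Over all genes 1433 rose after median centring (and 593 fell), 2351 rose and 1561 fell with array weights, and 1374 rose at a threshold of 0.1; with 1 mouse left out the rises ran from 298 to 2391 and the falls from 365 to 1401. The members that rose numbered 2 (Slamf1 and Ly9) after median centring, with array weights and at a threshold of 0.1, and 1 to 3 with 1 mouse left out. The members that fell numbered 2 with array weights (Slamf6 and Slamf7) and 0 to 1 with 1 mouse left out. Of the signalling genes 11 rose and 5 fell with array weights, and 8 rose and 2 fell at a threshold of 0.1; 1 fell, Vav1, with the replicate block, after quantile normalization and with a 50% filter. With 1 mouse left out 1 to 11 of them rose and 0 to 4 fell. Small differences that did not pass changed sign: Cd48 was -0.0064 after quantile normalization, and with 1 mouse left out Cd48 ran from -0.035 to 0.077, Cd84 from -0.0070 to 0.256, Slamf9 from -0.035 to 0.166, Slamf8 from -0.21 to 0.037 and Crtam from -0.0013 to 0.127. With a 50% filter Slamf6 and Slamf9 were too dim to be tested. Of the other genes named by the rule 36 were called, 24 of them under every alternative, and 12 lost the call under at least 1. These alternatives were run after seeing the data. Genes named after their values were seen were not put through them.

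By the sample labels the replicate numbers name different mice. Deviations from the group means correlated at 0.293, -0.188 and -0.0827 over genes between mice 1, 2 and 3 of the groups, and not every mouse correlated best with its own number. Such deviations cancel within each group, which ties the correlations to one another, so they do not settle whether mice were paired. With the replicate block 746 genes rose and 726 fell, no member's call changed (adjusted p 0.000898 for Slamf1 and 0.0485 for Slamf7), Cd244a (0.067) and Lat (0.0751) lost the call, and Sh2d1b1 (0.0249) and Vav1 (0.0398) passed.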
